A study of Rattus norvegicus with 16 samples.

Results

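The solute carrier (Slc) genes on a rat expression array were examined in the pontine nuclei after saline, lysolecithin or transection had been applied to the axons of their neurons. Members were the probe sets with 1 platform gene symbol starting with Slc and a digit, other than Slc1a2 and Slc1a3. The array held 159 such probe sets for 112 genes, among 8799 probe sets in all. Of these, 82 probe sets for 63 genes were called Present (detected above their mismatch probes) on at least 3 of the 16 arrays and were tested, beside 4413 probe sets tested in all. Of the tested members, 54 were Present on all 16 arrays and 14 on 3 to 7. No member passed the detection rule through the arrays of 1 lesion group alone. The rule used no difference between groups.

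Solute carriers are membrane proteins that move ions, sugars, amino acids, transmitters, metals and metabolites across the cell surface or the membranes of organelles. In neurons they set intracellular chloride, clear transmitters and bring in amino acids, creatine and glucose. Amino acid carriers of family 7 supply protein synthesis, and several of them reach the cell surface only when bound to a heavy chain of family 3. In many cell types their transcripts are targets of ATF4, a transcription factor that is made when amino acids are short or proteins misfold.

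Pontine nuclei are brainstem cell groups whose axons run to the cerebellum. The series title places the question in how these neurons respond to demyelination and to axon transection at a distance from the cell body. Total RNA from 16 conditions had been hybridised as biotin-labelled cRNA, 1 array each. The groups were transection, lesion side (days 4, 10 and 37), lysolecithin, lesion side (the same days), saline, lesion side (the same days), the contralateral nuclei of each intervention (days 10 and 37) and 1 healthy control. Lysolecithin is a detergent-like lipid that strips myelin, and saline is its vehicle. The rats' strain, sex and age and the number of animals behind an array are not given in the sources used here. The 6 contralateral arrays and the healthy control formed the 7 controls. No control array was of day 4, so day is mixed with treatment in the comparisons with controls. Those comparisons did not use the pairing of sides. Each condition rests on a single array, and the 3 days of a group were treated as its replicates. Errors and p-values therefore describe the spread between arrays of unlike conditions, not between animals given the same treatment. The number of arrays limits the precision.

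Signals are MAS5 intensities, scaled on each array by the authors and compared here for the same probe set across arrays, never between probe sets. The share of probe sets called Present was 39.9% on the healthy control array and up to 47.1% on the others. The healthy array correlated least with the rest (0.914 to 0.950 over all tested probe sets). The 3′/5′ signal ratio of beta-actin, a sign of RNA quality, was 1.07 to 1.42 on the transection, 1.20 to 1.44 on the lysolecithin and 1.41 to 1.68 on the saline lesion-side arrays, and 1.04 to 1.53 on the controls. The saline array of day 4 held the lowest of the 16 signals for 20 of the 82 members (24.4%) and for 14.8% of all tested probe sets. All 4 neuron markers on the array (Snap25, Syt1, Nefl and Nefm) were Present on at least 3 arrays. The glutamatergic markers Slc17a6 and Slc17a7 had no probe set with those symbols, so the excitatory type of these neurons could not be checked. Of the 4 inhibitory markers, Gad1 was Present on 4 arrays and Gad2, Slc32a1 and Slc6a5 on 0.

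None of the 82 solute carrier probe sets passed an adjusted p of 0.05 in any of 10 comparisons tested with limma, a linear model with moderated statistics fitted across all 4413 probe sets. In transection against controls, 0 members passed and 0.0227% of all tested probe sets did. No probe set at all passed in lysolecithin against controls (0.0%), in saline against controls (0.0%), between days 37 and 10 (0.0%) or between lesion and contralateral sides (0.0%). Transection against saline had 0.725% of all probe sets past the threshold, lysolecithin against saline 0.159%, and transection against lysolecithin 0.476%. The shares for day 10 against day 4 and for day 37 against day 4 were 0.0453% and 0.0227%. At these shares, fewer than 1 of 82 probe sets would be past the threshold in each comparison. The solute carriers thus gave no count that differed from the background.

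Counts of the 82 members with an unadjusted p under 0.05 are given with the percentage of all probe sets in brackets. The p was reached by 15 members in transection against controls (11% of all probe sets), 6 in lysolecithin against controls (4.65%) and 10 in saline against controls (12.4%). It was reached by 19 members in transection against saline (16.9% of all), 17 in lysolecithin against saline (20.6%) and 16 in transection against lysolecithin (13.6%). Between days it was reached by 11 members for day 10 against day 4 (13.2%), 10 for day 37 against day 4 (16.4%) and 10 for day 37 against day 10 (7.84%). In the 6 pairs of sides it was reached by 4 members (4.96%). The 3 comparisons with controls share the same 7 controls, and those between interventions or days share arrays too, so they are given side by side without an overlap. Median differences of the 82 members stayed within 0.07 of 0 on the log2 scale in all 10. The highest signal over the lowest across the 16 arrays was 1.93 at the median for members and 1.89 for all tested probe sets.

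**Figure D1:**
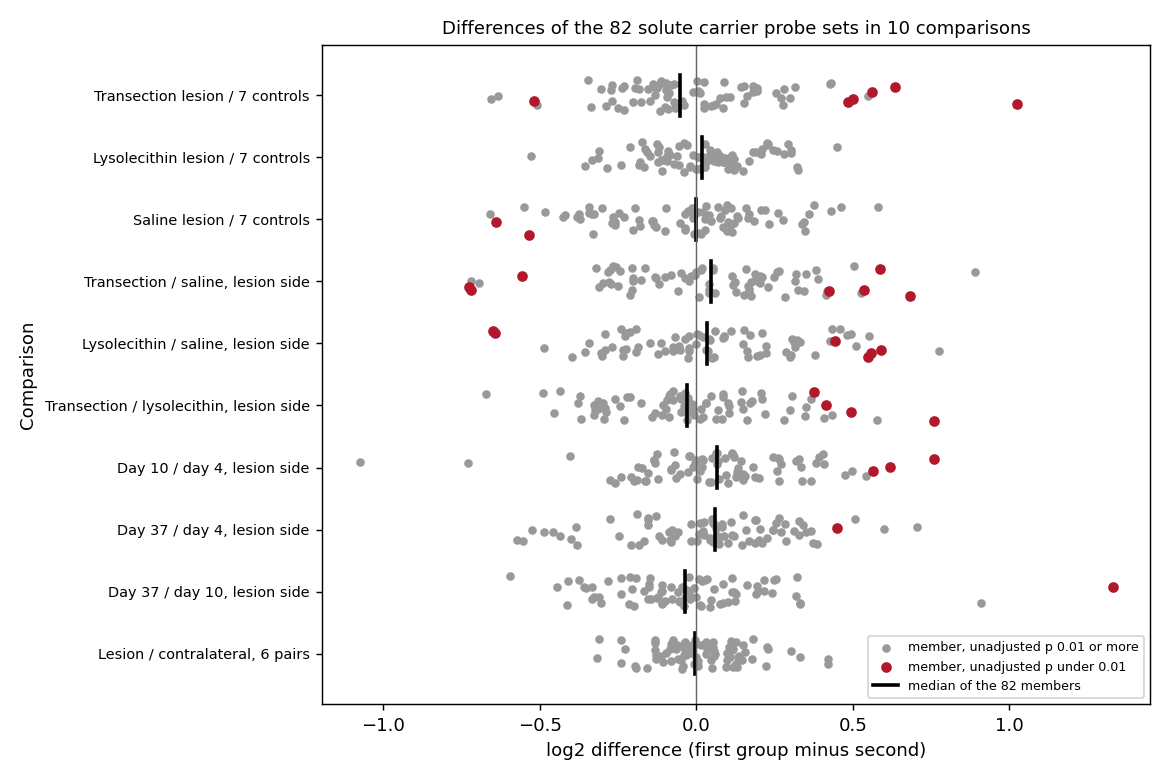
Log2 difference (first-named group minus second) of each of the 82 solute carrier probe sets in the 10 comparisons, 1 point per probe set, with a black bar at the members' median and red points where the unadjusted limma p was under 0.01. The medians lie near 0, and the widest single differences are 1.33 for Slc4a1 between days 37 and 10, -1.07 for Slc22a3 between days 10 and 4 and 1.02 for Slc7a3 in transection against controls.

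Values on every array are given first for the 21 probe sets (20 genes) with an unadjusted p under 0.01 in any comparison, and for a few other genes that were chosen after their values were seen. Differences are on the scale of log2(signal + 16), which understates changes of dim probe sets. Probe sets whose names end in s_at can share probes with related transcripts. In bulk tissue, fewer cells of a type and less RNA per cell cannot be told apart.

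**Figure D2:**
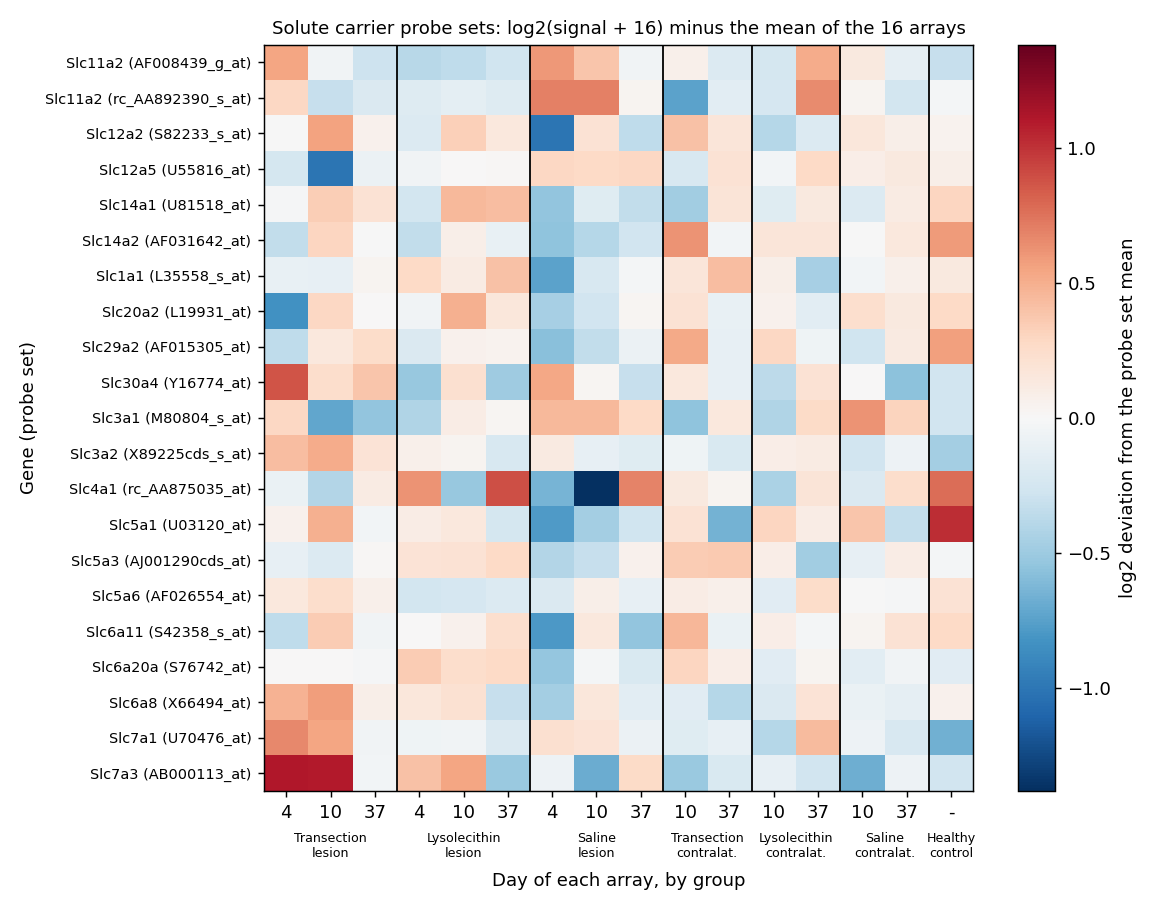
Deviation of log2(signal + 16) from each probe set's mean over the 16 arrays (color, log2 units) for the 21 probe sets with an unadjusted p under 0.01 in any comparison, by group and day. Slc7a3, Slc7a1, Slc3a2 and Slc6a8 are high on the transection arrays of days 4 and 10, where Slc12a5 is low, and the saline array of day 4 is low for many probe sets.

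Of the amino acid transporters of families 3 and 7, Slc7a3, Slc7a5, 2 of 3 probe sets of Slc7a1 and 1 of 2 of Slc3a2 had their 2 highest signals on transection days 4 and 10, while Slc3a1 and the other probe sets did not. Of the 8 tested probe sets (5 genes), 6 were higher in transection than in controls, with a median difference of 0.38, beside -0.01 for all probe sets. In transection against lysolecithin 7 of 8 were higher (median 0.38, all probe sets 0.00), and in transection against saline 7 of 8 (median 0.22, all probe sets 0.00). In lysolecithin against controls 4 of 8 were higher (median 0.01, all probe sets 0.01). Saline was also higher than controls for 7 of 8 (median 0.10, all probe sets 0.00), so the direction was not particular to transection. None of these differences passed the adjusted test.

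Slc7a3 (probe set AB000113_at) encodes CAT3, a cationic amino acid transporter of brain that carries arginine and lysine. Its signal on days 4, 10 and 37 was 410.2, 408 and 177 after transection, 246, 272 and 123 after lysolecithin and 172, 107 and 221 after saline, against 108 to 173 (median 149) on the 7 controls. All 3 transection arrays lay above all 7 controls, those of days 4 and 10 by the widest margin, while the day 37 array lay below 1 saline array. The log2 difference between transection and controls was 1.02 (SE 0.27, adjusted p = 0.167), a 2.03-fold higher level. The probe set was Present on 7 of 16 arrays: 2 transection, 2 lysolecithin, 2 saline and 1 control arrays. Against saline the difference was 0.89 (SE 0.33, adjusted p = 0.210), higher on 2 of 3 days, and against lysolecithin 0.58 (SE 0.33, adjusted p = 0.468). Leaving out saline day 37 put 2 members past the threshold for transection against saline (1.27% of all probe sets), Slc7a3 at 1.46 (SE 0.235, adjusted p = 0.0115) and Slc5a1.

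Slc7a1 encodes CAT1, the widely expressed cationic amino acid transporter. Its brightest probe set (U70476_at) read 882, 812 and 532 on days 4, 10 and 37 after transection, 528, 529 and 476 after lysolecithin and 642, 626 and 519.5 after saline, against 341 to 749.9 (median 487) on controls. The transection arrays of days 4 and 10 were the highest of the 16, and the highest control was the lysolecithin contralateral array of day 37. The difference between transection and controls was 0.56 (SE 0.19, adjusted p = 0.281), and between transection and lysolecithin 0.49 (SE 0.15, adjusted p = 0.199). A second probe set (rc_AA957917_s_at) read 782, 643 and 456 after transection against 312 to 632 (median 403) on controls, a difference of 0.55 (SE 0.21, adjusted p = 0.341). The third, dim probe set (L10152_s_at, Present on 5 arrays) had the opposite sign, with 163, 178 and 121 after transection, 113 to 233 (median 202) on controls and a difference of -0.18 (SE 0.25, adjusted p = 0.824).

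Slc7a5 encodes LAT1, which exchanges large neutral amino acids such as leucine and works only as a pair with the heavy chain 4F2hc, the product of Slc3a2. Slc7a5 (AB015432_s_at) read 2814, 3303 and 1139 on days 4, 10 and 37 after transection, 1897, 1904 and 1855 after lysolecithin and 2092, 2046 and 1752 after saline, against 1713 to 2138 (median 1980.3) on controls. After transection the first 2 arrays were the highest of all 16 and the day 37 array was the lowest of all 16. With the 3 days as replicates the difference from controls was 0.18 (SE 0.22, adjusted p = 0.792). Without the day 37 array it was 0.65 (SE 0.12, adjusted p = 0.0129), a 1.57-fold higher level. That passed the threshold, as did 3 of 82 members and 1.45% of all tested probe sets. The array left out was the lowest for this gene, which raises the difference, so the pass is no separate support.

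Slc3a2 (X89225cds_s_at) read 3094, 3298 and 2620.4 after transection, 2421, 2353 and 1967 after lysolecithin and 2517, 2127 and 2051 after saline, against 1656 to 2483 (median 2192) on controls. The 3 transection arrays were the highest of the 16. The difference was 0.50 (SE 0.13, adjusted p = 0.167) against controls, 0.43 (SE 0.12, adjusted p = 0.114) against saline and 0.42 (SE 0.12, adjusted p = 0.187) against lysolecithin, higher on 3 of 3 days in each. The second Slc3a2 probe set (AB015433_s_at) read 4037, 6237 and 4491 after transection against 2897 to 5088 (median 4332) on controls, and its highest array was also transection day 10. Its difference from controls was 0.26 (SE 0.18, adjusted p = 0.634), higher on 2 of 3 days. The other family 3 heavy chain, Slc3a1 (M80804_s_at), which pairs with a cystine transporter, read 3816, 1896 and 2137 after transection, 2348, 3361 and 3184 after lysolecithin and 4288, 4269 and 3803 after saline, against 2131 to 4832 (median 3473) on controls. Its difference between transection and saline was -0.72 (SE 0.22, adjusted p = 0.156), opposite in sign to that of Slc3a2. Without transection day 4 this difference was -1.09 (adjusted p = 0.0340), past the threshold, as the 1 member called (0.113% of all probe sets).

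**Figure D3:**
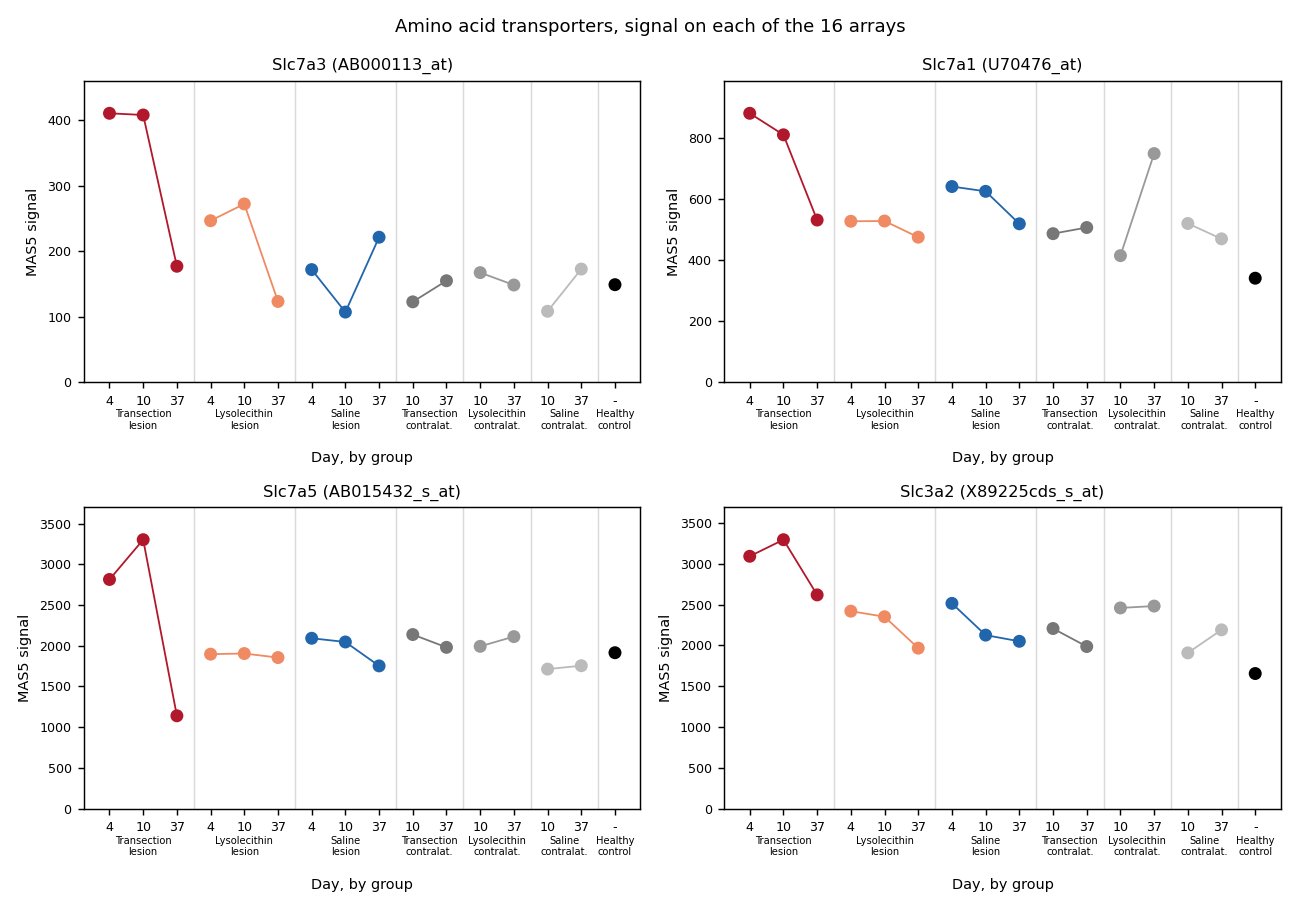
MAS5 signal (linear axes from 0) of Slc7a3, Slc7a1, Slc7a5 and Slc3a2 on each of the 16 arrays, by group and day, lines joining the days of a group. On transection days 4 and 10 each gene lies above every other group's arrays, and on day 37 Slc7a5 lies below all other arrays while Slc3a2 stays the highest outside days 4 and 10.

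Being beyond all 14 other arrays on both transection days 4 and 10, a pattern chosen after the values were seen, held upward for 7 of 82 members (3.06% of all tested probe sets). These were Slc3a2 (X89225cds_s_at), 2 probe sets of Slc7a1, Slc7a3, Slc7a5, Slc6a8 and Slc41a2, so 5 of the 7 belonged to the amino acid transporters. It held downward for 3 of 82 (2.38% of all): Slc12a5, Slc4a3 and Slc37a4 (AF080468_at). Leaving out transection day 37, 3 members passed the threshold against controls (1.45% of all probe sets): Slc7a3 at 1.40 (SE 0.27, adjusted p = 0.0133), Slc7a5 and Slc12a5. Slc7a1 (U70476_at) and Slc3a2 (X89225cds_s_at) then reached 0.78 (SE 0.20, adjusted p = 0.0676) and 0.59 (SE 0.15, adjusted p = 0.0676). By day 37 the amino acid transporters were lower than on day 10 across the lesion-side arrays for 8 of 8 probe sets (median -0.33, all probe sets 0.01), and no single difference passed the adjusted test.

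The promoters of the 3 amino acid transporter genes that were high together and have an entry in the RefSeq table (build GRCr8) are shown, each 300 bases long and written 5′ to 3′ on the strand of the gene. The lower-case window runs from 250 bases before the start of the gene, and capitals mark a match to TGATGNAA on either strand, the core of the element that ATF4 binds with C/EBP partners. Slc7a1 lies at chr12:11664238-11664537 (plus strand), Slc7a5 at chr19:66872363-66872662 (minus strand) and Slc3a2, at the outer of the 2 starts in the table, at chr1:215048015-215048314 (minus strand).
Slc7a1: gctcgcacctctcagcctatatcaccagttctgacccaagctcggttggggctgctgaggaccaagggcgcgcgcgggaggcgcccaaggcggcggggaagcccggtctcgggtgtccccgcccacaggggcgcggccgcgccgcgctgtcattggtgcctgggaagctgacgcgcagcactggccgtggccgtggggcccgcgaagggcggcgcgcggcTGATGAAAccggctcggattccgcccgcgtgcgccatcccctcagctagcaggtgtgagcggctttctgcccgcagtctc
Slc7a5: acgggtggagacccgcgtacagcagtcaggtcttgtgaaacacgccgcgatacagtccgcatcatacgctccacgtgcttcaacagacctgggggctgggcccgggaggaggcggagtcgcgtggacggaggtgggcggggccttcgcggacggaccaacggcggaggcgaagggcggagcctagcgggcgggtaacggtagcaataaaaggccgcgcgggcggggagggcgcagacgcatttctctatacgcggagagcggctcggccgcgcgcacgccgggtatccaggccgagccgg
Slc3a2: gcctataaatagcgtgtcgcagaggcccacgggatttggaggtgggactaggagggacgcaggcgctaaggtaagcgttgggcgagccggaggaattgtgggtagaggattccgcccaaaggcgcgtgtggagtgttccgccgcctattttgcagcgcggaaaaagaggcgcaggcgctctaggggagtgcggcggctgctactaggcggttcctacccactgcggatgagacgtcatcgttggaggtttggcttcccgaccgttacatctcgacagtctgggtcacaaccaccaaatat
The Slc7a1 window held 1 match, 30 bases before the gene start, and those of Slc7a5 and Slc3a2 held none of these letters. The motif was found in 1332 of 33469 promoters of the same length (3.98%) and in 2 of the 52 tested member genes with a promoter (3.85%), Slc7a1 and Slc23a3. A match is a description of the letters and shows no binding.

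Among the chloride and bicarbonate transporters (12 probe sets, 9 genes) Slc12a5 had the smallest adjusted p of any member. Slc12a5 (U55816_at) encodes KCC2, the neuron-specific cotransporter that extrudes potassium and chloride and keeps GABA and glycine inhibitory. It read 3288, 1925 and 3699 on days 4, 10 and 37 after transection, 3758, 3904 and 3954 after lysolecithin and 4755, 4719 and 4765 after saline, against 3354 to 4706 (median 4151) on controls. The 3 saline arrays were the highest of the 16, every transection array lay below every lysolecithin array, and transection day 10 was the lowest of all. The difference was -0.73 (SE 0.17, adjusted p = 0.0897) for transection against saline, -0.43 (SE 0.17, adjusted p = 0.304) against lysolecithin and -0.52 (SE 0.15, adjusted p = 0.232) against controls, lower on 3 of 3 days in each. For lysolecithin against saline it was -0.29 (SE 0.17, adjusted p = 0.347).

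Without transection day 37 Slc12a5 passed the threshold against controls, at -0.70 (SE 0.16, adjusted p = 0.0376), and against saline, at -0.90 (SE 0.18, adjusted p = 0.0437). It was the 1 member called against saline there (1.25% of all probe sets), and 0 members were called against lysolecithin (0.249% of all). The authors' series value table used in place of the signals put it past the threshold against saline, at -0.89 (limma adjusted p = 0.0458). That table comes from the same arrays, and its p-values were adjusted over only the tested probe sets it holds. The pass is thus no separate support. The transection side of the pair read 1925 against 3354 on the contralateral side on day 10. On day 37 the lesion side read 3699 against 4468. Of the 4 neuron markers, 4 were lower in transection than in controls (median -0.15) and than in lysolecithin (median -0.14). Against saline 2 of these markers were lower and 2 higher (median -0.16). Their summed signal was 22587 to 28251 on the transection, 27965 to 29640 on the lysolecithin and 29114 to 33484 on the saline lesion-side arrays, and 26062 to 31464 on controls. Their part in the Slc12a5 difference was not tested.

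Slc12a2 encodes NKCC1, the importer of sodium, potassium and chloride that opposes KCC2. Its brightest probe set (AF051561_s_at) was steady, at 2289 to 2910.4 over the 16 arrays, with -0.00 (SE 0.12, adjusted p = 0.991) for transection against saline. A second, S82233_s_at, read 448, 667 and 469 on days 4, 10 and 37 after transection, 393, 568 and 501 after lysolecithin and 216, 520.2 and 348 after saline, against 339 to 601 (median 476) on controls. It was lowest on saline day 4 and higher on day 10 than on day 4 in all 3 interventions, by 0.76 (SE 0.17, adjusted p = 0.159). Its difference for transection against saline was 0.59 (SE 0.17, adjusted p = 0.128). The remaining probe set (AF086758_g_at) spanned 205 to 528, and it too was lowest on saline day 4. The 3 probe sets thus did not give the same picture of the gene.

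Slc4a3, the chloride-bicarbonate exchanger AE3 of excitable cells, read 2653, 2678 and 3556 after transection against 2867 to 3952 (median 3588) on controls, a difference of -0.27 (SE 0.13, adjusted p = 0.451). Its transection arrays of days 4 and 10 were the lowest of the 16 and its day 37 array lay among the controls. Slc4a4 (AF004017_at), the sodium-bicarbonate cotransporter NBCe1 of astrocytes, read 3429, 3739 and 3865 after transection, 4156, 3353 and 3599 after lysolecithin and 2029, 4021 and 3080.3 after saline. On the contralateral side it read 2665 and 2520.1 for transection, 2156 and 2359 for lysolecithin and 4193 and 3748 for saline on days 10 and 37. The contralateral arrays of transection and lysolecithin were thus lower than their lesion sides, while both saline contralateral arrays were higher than theirs. Over 6 pairs the difference was 0.33 (SE 0.13, adjusted p = 0.945). The astrocyte markers on the array (Aqp4, Gja1, Aldh1l1 and S100b) summed to 18614 to 23715 on the transection, 21034 to 23464 on the lysolecithin and 19923 to 21615 on the saline lesion-side arrays and to 10235 to 22335 on controls. All 4 were higher in transection than in controls (median 0.40), 3 of 4 higher than in saline, and their part in the Slc4a4 values was not tested.

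Slc4a1 encodes the anion exchanger of red blood cells (band 3). Its dim probe set rc_AA875035_at (Present on 6 arrays) read 89.3, 69.0 and 106 after transection, 156, 62.3 and 192 after lysolecithin and 56.2, 27.1 and 164 after saline, against 67.0 to 176 (median 107) on controls. It was higher on day 37 than on day 10 in all 3 interventions, by 1.33 (SE 0.31, adjusted p = 0.349). The brighter probe set J04793_at (Present on all 16) spanned 476 to 837 and differed between those days by -0.11 (SE 0.15, adjusted p = 0.857), the opposite sign. The blood markers Hbb and Alas2 summed to 4984 to 7762 on the transection, 5146 to 12383 on the lysolecithin and 5942 to 7863 on the saline lesion-side arrays and to 3137 to 9893 on controls, and their part was not tested. The remaining chloride and bicarbonate members are given by their ranges. Slc12a4 (KCC1) spanned 446 to 746, Slc4a7, a sodium-bicarbonate cotransporter, 756 to 1026, and Slc26a2, a sulphate transporter Present on 3 arrays, 95.6 to 211. Slc4a2, the exchanger AE2, spanned 272 to 794, with single low arrays at lysolecithin lesion day 10 and saline contralateral day 37.

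**Figure D4:**
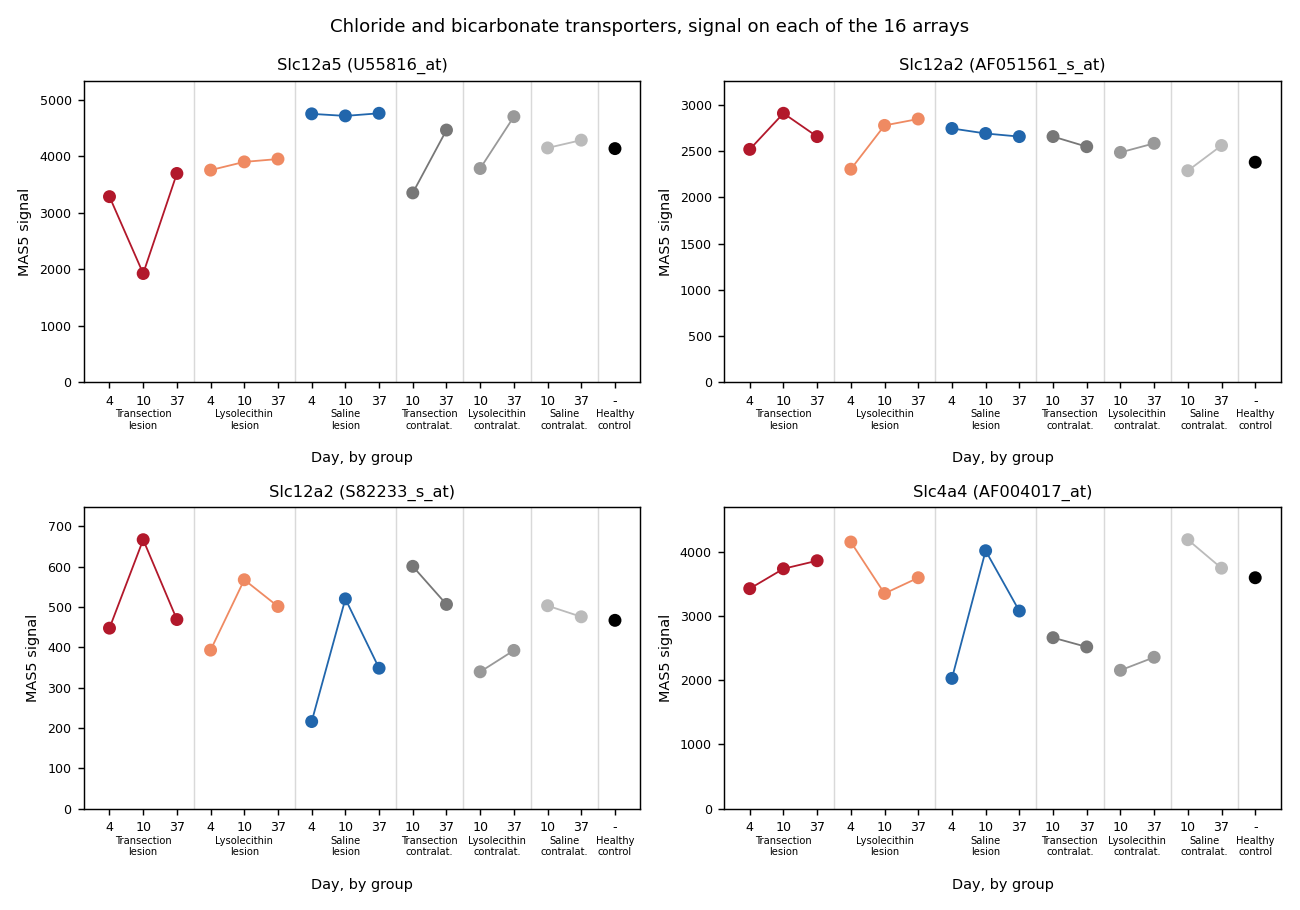
MAS5 signal (linear axes from 0) of Slc12a5, 2 probe sets of Slc12a2 and Slc4a4 on each of the 16 arrays, by group and day, lines joining the days of a group. Slc12a5 is lowest on transection day 10 (1925) and highest on the 3 saline arrays, the brighter Slc12a2 probe set is flat, and Slc4a4 is low on the contralateral arrays of transection and lysolecithin and on saline day 4.

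Of the metal transporters (7 probe sets, 5 genes), Slc11a2 and Slc30a4 differed most. Slc11a2 encodes DMT1, which imports iron and other divalent metals. Its probe set AF008439_g_at read 1788, 1180.4 and 997 after transection, 932, 953 and 1003 after lysolecithin and 1860.2, 1598 and 1179.9 after saline, against 973 to 1739.9 (median 1118) on controls. A second, rc_AA892390_s_at, read 710.0, 461 and 504 after transection, 511, 526 and 512 after lysolecithin and 953, 953 and 595 after saline, against 340.2 to 918 (median 523) on controls. In both, every lysolecithin array lay below every saline array, the 3 lysolecithin arrays differed little from each other, and the saline arrays were lowest on day 37. The differences for lysolecithin against saline were -0.65 (SE 0.17, adjusted p = 0.107) and -0.64 (SE 0.18, adjusted p = 0.112). For transection against saline they were -0.24 (SE 0.17, adjusted p = 0.493) and -0.56 (SE 0.18, adjusted p = 0.165). Against controls lysolecithin differed by -0.31 and -0.06, and saline by 0.34 and 0.58. Without saline day 37 the second probe set passed the threshold for lysolecithin against saline, at -0.83 (adjusted p = 0.0477), the 1 member called there (2.15% of all probe sets). The third probe set, AF008439_at, was Present on 0 of 3 lysolecithin and 3 of 3 saline arrays. It was 1.23-fold lower after lysolecithin than after saline, a difference of -0.30 (SE 0.20, adjusted p = 0.395).

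Slc30a4 (Y16774_at), a zinc transporter that loads zinc into vesicles, read 548, 347 and 386 after transection, 199, 344 and 204 after lysolecithin and 429.5, 298 and 232 after saline, against 192 to 338 (median 268) on controls. All 3 transection arrays lay above all controls and all lysolecithin arrays, while the saline values overlapped those of transection. The difference was 0.63 (SE 0.22, adjusted p = 0.293) against controls and 0.76 (SE 0.24, adjusted p = 0.221) against lysolecithin. Slc41a2 (rc_AA893454_at), of a family of magnesium transporters, read 445, 504 and 311 after transection against 236 to 411 (median 282) on controls, and its difference over the 6 pairs of sides was 0.42 (SE 0.15, adjusted p = 0.916), higher on the lesion side in 5. Slc41a3 (rc_AA799457_at), of the same family, lay below all 7 controls on all 3 transection arrays, at 667, 638 and 582 against 681 to 917 (median 734), a difference of -0.27 (SE 0.11, adjusted p = 0.388). Slc40a1, the iron exporter ferroportin (Present on 5 arrays), spanned 86.8 to 227.

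Groups of 3 and 7 arrays that did not overlap were found for 4 members in transection against controls (2.47% of all tested probe sets): Slc3a2 (X89225cds_s_at), Slc7a3 and Slc30a4 higher and Slc41a3 lower. In lysolecithin against controls there were 3 (1.74% of all): Slc2a1 (M13979_at) and Slc6a6 higher and Slc5a6 (AF026554_at) lower. In saline against controls there were 2 (3.17% of all), Slc12a5 higher and Slc14a2 lower. Between the lesion groups of 3 arrays, 13 members did not overlap for transection against saline (15.1% of all), 19 for lysolecithin against saline (23.1%) and 20 for transection against lysolecithin (16.2%), where 20 is 24.4% of the members.

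Sugar and vitamin carriers (9 probe sets, 6 genes) showed no common direction: 4 were higher and 5 lower in transection than in controls (median -0.13, all probe sets -0.01). Slc2a1 encodes GLUT1, the glucose transporter of the blood-brain barrier and glia. Its probe set S68135_s_at read 6201, 4765 and 4009 after transection, 3847, 4358 and 3795 after lysolecithin and 6065, 4735 and 4140.3 after saline, against 2229 to 5129 (median 3765) on controls. It was highest on day 4 of transection and saline, lowest on the healthy control (2229), and differed between days 37 and 4 by -0.40 (SE 0.13, adjusted p = 0.191). The other Slc2a1 probe set, M13979_at, read 1262, 1229 and 1182 after lysolecithin against 873 to 1136 (median 992) on controls, above all of them, by 0.29 (SE 0.12, adjusted p = 0.972). Slc2a3 (GLUT3, the neuronal glucose transporter) spanned 431 to 899 and was lowest on saline day 4.

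Slc5a1 (U03120_at), the sodium-glucose cotransporter SGLT1, read 479.9, 649 and 447 after transection, 492, 508 and 385 after lysolecithin and 259, 327 and 375 after saline, against 287 to 944 (median 528) on controls. Every saline array was below every transection and lysolecithin array, and the healthy control was the highest array of the 16. The difference for transection against saline was 0.68 (SE 0.18, adjusted p = 0.105), for lysolecithin against saline 0.51 (SE 0.18, adjusted p = 0.154) and for transection against controls 0.03 (SE 0.25, adjusted p = 0.981). Without saline day 37, transection against saline reached 0.91 (adjusted p = 0.0283), past the threshold. Slc5a3 (AJ001290cds_at), the myo-inositol carrier that takes up osmolyte, read 423, 399.9 and 463 after transection, 523, 529.8 and 557 after lysolecithin and 341, 365 and 478 after saline, against 324 to 593 (median 487) on controls. The lysolecithin arrays lay above the other lesion-side arrays, by 0.44 (SE 0.14, adjusted p = 0.132) over saline, and within the range of the controls.

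Slc5a6 encodes the sodium-dependent carrier of biotin and pantothenate. Its probe set AF026554_at read 2194, 2349.6 and 2084 after transection, 1664, 1687 and 1742 after lysolecithin and 1730.2, 2102 and 1831 after saline, against 1773 to 2372 (median 2082) on controls. The difference between transection and lysolecithin was 0.38 (SE 0.12, adjusted p = 0.221), and all lysolecithin arrays lay below all controls. The second probe set, AF081204_s_at (Present on 6 arrays), had the opposite sign, -0.37 (SE 0.17, adjusted p = 0.361). Slc37a4, the glucose-6-phosphate carrier of the endoplasmic reticulum, spanned 526 to 833 on its brighter probe set and 436 to 801 on the other, which was lowest on transection days 4 and 10.

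Monocarboxylate transporters move lactate, pyruvate and ketone bodies between glia, neurons and blood. Slc16a1 (MCT1) spanned 2120.0 to 2624 on its brighter probe set, with 0.05 (SE 0.09, adjusted p = 0.888) for transection against controls. Slc16a3 (MCT4, U87627_at, Present on 9 arrays) read 185, 176 and 216 after transection and 255, 225 and 363 after lysolecithin, against 181 to 367 (median 288) on controls. Its difference was -0.49 (SE 0.18, adjusted p = 0.255) between transection and lysolecithin. Slc16a7 (MCT2, the neuronal form) read 207, 226 and 214 after transection and 145, 165 and 133 after saline without overlap, a difference of 0.50 (SE 0.18, adjusted p = 0.199), against 123 to 220.2 (median 186) on controls. Slc16a6 (rc_AA859652_at) had 1 isolated array: it read 1689.5 on transection day 10, and 751 to 1031 on the other 15.

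The family 6 carriers bring transmitters, creatine, taurine and amino acids into cells with sodium and chloride. Slc6a8 (X66494_at), the creatine transporter, read 4528, 4869 and 3444 after transection, 3626, 3764 and 2594 after lysolecithin and 2333, 3623 and 2925 after saline, against 2463 to 3691 (median 2971) on controls. Transection days 4 and 10 were the highest of the 16 arrays and saline day 4 the lowest. The difference was 0.49 (SE 0.16, adjusted p = 0.272) against controls, 0.54 (SE 0.15, adjusted p = 0.120) against saline and 0.37 (SE 0.15, adjusted p = 0.324) against lysolecithin, higher on 3 of 3 days in each. Over the lesion-side arrays day 37 differed from day 10 by -0.45 (SE 0.15, adjusted p = 0.489).

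Slc6a11 (S42358_s_at), the GABA transporter GAT3 found mainly on astrocytes, read 466, 768 and 576 after transection, 597, 624 and 702 after lysolecithin and 339, 660.1 and 404 after saline, against 561 to 828 (median 639) on controls. It was lower on day 4 than on day 10 in all 3 interventions, the difference of day 10 over day 4 being 0.56 (SE 0.18, adjusted p = 0.261). Saline differed from controls by -0.53 (SE 0.18, adjusted p = 0.372), lower on days 4 and 37 and higher on day 10 than the control mean. Of the 4 astrocyte markers 2 were higher and 2 lower in saline than in controls (median -0.17). Aqp4 read 602.8 to 2028 on the saline arrays, against 1103 to 2341 on controls, and Gja1 104.0 to 269, against 167 to 400.1. Aldh1l1 read 986 to 1392 on the saline arrays, against 871 to 1144 on controls, and S100b 18108 to 18228, against 6561 to 19576. Their part in the Slc6a11 values was not tested.

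Slc6a20a (S76742_at), a carrier of proline and related imino acids, read 361, 359 and 354 after transection, 461, 428 and 436 after lysolecithin and 243, 350.0 and 306 after saline, against 319 to 444 (median 345) on controls. It was Present on 2 lysolecithin arrays and on 0 transection or control arrays. Its remaining Present call was on a saline array. Its mean level after lysolecithin was 1.22-fold that after transection and 1.23-fold that of controls. The difference between lysolecithin and saline was 0.55 (SE 0.16, adjusted p = 0.116). The 5 markers of meninges and fibroblasts were higher in lysolecithin than in saline, 5 of 5 with a median of 0.70. They summed to 2133 to 5253 on the lysolecithin, 1838 to 2360 on the saline and 1641 to 2162 on the transection lesion-side arrays and to 2316 to 5431 on controls, and their part was not tested. Slc6a6 (M96601_at), the taurine transporter, read 789, 794 and 778 after lysolecithin and 449, 616 and 663 after saline, against 506 to 708 (median 662) on controls, and lysolecithin lay above both. Its difference was 0.46 (SE 0.16, adjusted p = 0.150) against saline and 0.32 (SE 0.14, adjusted p = 0.972) against controls. Slc6a15, a neutral amino acid carrier of neurons, read 1814, 1748 and 1589 after transection and 2046, 2109 and 2094 after saline, a difference of -0.28 (SE 0.12, adjusted p = 0.254), against 1330.1 to 2267 (median 1841) on controls.

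Slc18a3 packs acetylcholine into vesicles and marks cholinergic terminals and cells. Its 2 probe sets spanned 287 to 535 (U09211_at, Present on all 16) and 329 to 691 (X80395cds_s_at, Present on 3), both highest on the healthy control. Chat, the other cholinergic marker on the array, was Present on 0 arrays. The transporters that define other transmitter types, Slc6a2, Slc6a3, Slc6a4, Slc6a5, Slc6a9, Slc18a2 and Slc32a1, did not reach 3 Present arrays.

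Slc1a1 encodes EAAC1, the glutamate and cysteine carrier of neurons, and was the only family 1 gene left after Slc1a2 and Slc1a3 were set aside. Its probe set L35558_s_at read 267, 265 and 295 after transection, 352, 312 and 388 after lysolecithin and 167, 245 and 284 after saline, against 206 to 393 (median 306) on controls. Every lysolecithin array lay above every transection and saline array, by 0.59 (SE 0.18, adjusted p = 0.119) over saline. The brighter probe set D63772_at read 769.9, 819.8 and 837 after transection, 762, 889 and 833 after lysolecithin and 1129, 1046 and 794 after saline, against 758 to 989.5 (median 872) on controls. Its lysolecithin against saline difference was -0.24 (SE 0.15, adjusted p = 0.379), so the probe sets of this gene pointed in opposite directions.

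**Figure D5:**
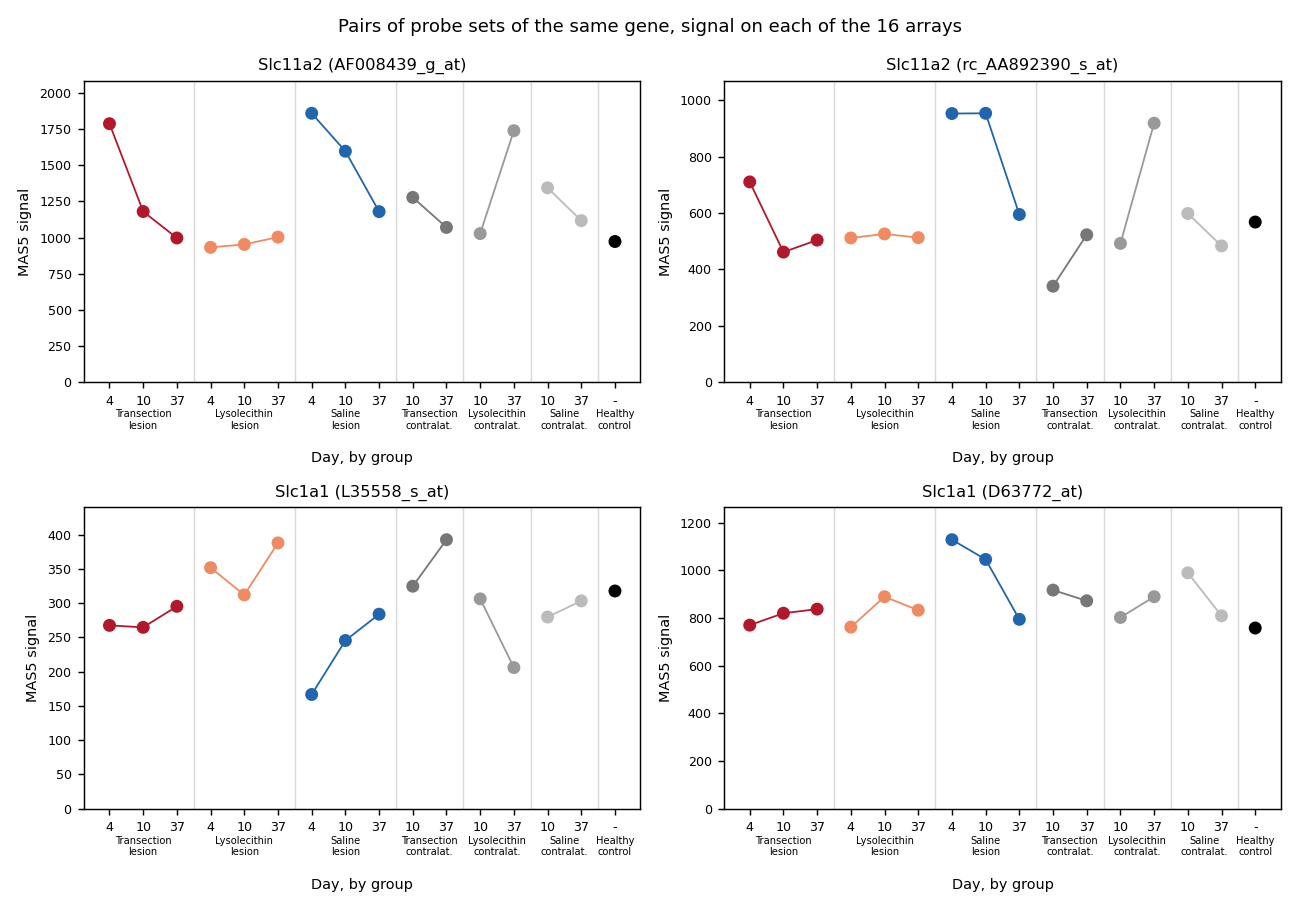
MAS5 signal (linear axes from 0) of 2 probe sets each of Slc11a2 and Slc1a1 on each of the 16 arrays, by group and day, lines joining the days of a group. The Slc11a2 probe sets are both high on saline days 4 and 10 and on lysolecithin contralateral day 37, whereas saline day 4 is the lowest array for one Slc1a1 probe set (167) and the highest for the other (1129).

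Slc14a2 and Slc14a1 encode urea transporters, known best from kidney and from red cells and astrocytes. Slc14a2 (AF031642_at) read 1112, 1739.9 and 1407 after transection, 1109.8, 1496 and 1314 after lysolecithin and 957, 1069 and 1169 after saline, against 1372 to 2179.9 (median 1584) on controls. All 3 saline arrays lay below all 7 controls, by -0.64 (SE 0.17, adjusted p = 0.299), and the transection against saline difference was 0.39 (SE 0.13, adjusted p = 0.183). Slc14a1 (U81518_at, Present on 9 arrays) read 198, 258 and 233 after transection, 166, 278 and 275 after lysolecithin and 132, 177 and 155 after saline, against 139 to 249.5 (median 217) on controls, with 0.56 (SE 0.18, adjusted p = 0.132) for lysolecithin against saline. Its brighter probe set X98399cds_s_at had the same sign, 0.30 (SE 0.14, adjusted p = 0.238). Saline was thus the low group for both genes, and for both the comparison with lysolecithin or transection missed the threshold.

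Slc15a2 (PEPT2, a peptide carrier) was highest on transection day 4, at 1223, and differed from controls after transection by 0.28 (SE 0.13, adjusted p = 0.451). Slc15a4, a lysosomal peptide and histidine carrier, spanned 437 to 642, Slc27a1, a fatty acid carrier, 1818 to 2209.5, and Slc19a1, the reduced folate carrier (Present on 3 arrays), 509.5 to 847. Slc23a3 (Present on 3 arrays) spanned 243 to 507. Slc22a3, an organic cation transporter, was dim throughout, at 7.90 to 167, with its lowest value on transection day 10, and differed between days 10 and 4 by -1.07 (SE 0.39, adjusted p = 0.290).

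The mitochondrial carriers of family 25 (15 probe sets, 12 genes) carry nucleotides, phosphate and metabolites across the inner membrane, Slc25a17 being a peroxisomal exception. In transection against saline 4 were higher and 11 lower (median -0.12, all probe sets 0.00). Of the 15 probe sets, 4 were lower with an unadjusted limma p under 0.05, beside 8 of all 82 members and 7.86% of all tested probe sets. Against controls, 1 of the 15 was lower after transection at that p. Such a count is given for this role group alone, and some genes have several probe sets. It is therefore no test of the group. In transection against controls 4 were higher and 11 lower (median -0.09, all probe sets -0.01), and in saline against controls 11 were higher and 4 lower (median 0.09, all probe sets 0.00). Slc25a4, the ATP/ADP exchanger of muscle and brain, read 12286, 10062 and 12863 after transection, 14889.9, 13294 and 14844 after lysolecithin and 12846, 13604 and 15786 after saline, against 11999 to 15205 (median 13898) on controls. Its difference was -0.26 (SE 0.10, adjusted p = 0.210) for transection against saline and -0.29 (SE 0.10, adjusted p = 0.224) against lysolecithin, lower on 3 of 3 days.

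Slc25a3, the phosphate carrier, read 8157, 9383 and 10118 after transection and 11072, 10833 and 11443 after saline without overlap, a difference of -0.27 (SE 0.10, adjusted p = 0.207), against 8763 to 11147 (median 10038) on controls. Slc25a5, the second ATP/ADP exchanger, spanned 6964 to 9354, with -0.20 (SE 0.10, adjusted p = 0.312). Slc25a1, the citrate carrier, read 2066, 2457 and 3231 after transection and 3399, 2759 and 3474 after lysolecithin, against 2125 to 2937 (median 2797) on controls, with -0.33 (SE 0.13, adjusted p = 0.322) between the lesion groups. Slc25a11, the oxoglutarate carrier, read 2237, 2069.7 and 2471 after transection on U84727_at, against 2188 to 3113 (median 2605) on controls, and its probe set rc_AA859975_at read 352 on the healthy control against 1323 or more on the other 15 arrays. Slc25a23, an ATP-magnesium and phosphate carrier, differed by -0.32 (SE 0.13, adjusted p = 0.251) for transection against saline. The other members were Slc25a10 (dicarboxylate carrier, 1216 to 1477), Slc25a14 (708 to 1354), Slc25a17 (1895 to 3293), Slc25a20 (carnitine carrier, 226 to 405), Slc25a26 (S-adenosylmethionine carrier, 412 to 617) and Slc25a30 (228 to 448). Slc25a20 was higher on the lesion side in 5 of 6 pairs, by 0.30 (SE 0.12, adjusted p = 0.945). It was Present on 0 transection, 1 lysolecithin, 2 saline and 1 control arrays, so its transection readings had no Present call.

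Nucleoside and nucleotide sugar transporters numbered 5 probe sets for 4 genes. Slc29a2 (AF015305_at), the equilibrative nucleoside transporter ENT2, read 483, 686 and 745 after transection, 539, 646 and 643 after lysolecithin and 411, 487 and 584 after saline, against 509 to 928 (median 679.9) on controls. It was higher on day 37 than on day 4 in all 3 interventions, by 0.45 (SE 0.14, adjusted p = 0.173). Slc29a1 (ENT1) spanned 447 to 645. Slc35b1, a carrier of the endoplasmic reticulum, spanned 1877 to 2739. Slc35a1, which brings CMP-sialic acid into the Golgi, read 91.3 on transection day 4 and 298 to 473 on the other 15 arrays.

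Slc20a2 (L19931_at), a sodium-phosphate cotransporter, was Present on 3 arrays: 2 saline, 1 control and 0 transection or lysolecithin arrays. It read 305, 684 and 561 after transection, 539, 790.3 and 621 after lysolecithin and 401, 461 and 566 after saline, against 503 to 675 (median 613) on controls. Its higher readings after transection and lysolecithin were thus on arrays without a Present call. In each intervention day 10 was higher than day 4, by 0.62 (SE 0.18, adjusted p = 0.251). Slc24a2, a potassium-dependent sodium-calcium exchanger of neurons, spanned 832 to 3649.5, with its lowest value on lysolecithin day 37 and its highest on saline contralateral day 10. Slc8a3, the sodium-calcium exchanger NCX3 (Present on 6 arrays), spanned 222 to 432, and its lysolecithin against saline difference was 0.43 (SE 0.17, adjusted p = 0.202).

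Of the 63 tested genes, 16 had several tested probe sets, which allowed the direction of each gene to be read more than once. All probe sets of a gene had the same sign for 12 of the 16 genes in transection against saline and over the pairs of sides. This held for 10 of 16 in transection against controls, in lysolecithin against controls and in all 3 comparisons of days, for 9 in saline against controls and in transection against lysolecithin, and for 8 in lysolecithin against saline. The 8 genes with opposite signs in lysolecithin against saline were Slc12a2, Slc16a1, Slc1a1, Slc25a10, Slc25a11, Slc2a1, Slc3a2 and Slc5a6.

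Each lesion side was also set against its own contralateral side, 1 array against 1, without a test. On day 10 of transection 13 members differed by more than 1.5-fold (15.9%, beside 13.3% of all tested probe sets), and on day 37 of transection 7 (8.54%, beside 7.21%). For lysolecithin the counts were 7 on day 10 (8.54%, beside 8.84%) and 11 on day 37 (13.4%, beside 12.1%), and for saline 4 (4.88%, beside 4.37%) and 6 (7.32%, beside 7.52%). The members' shares thus lay near those of all probe sets in each pair.

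Genes of the same transport processes outside the Slc families, a list of 26 genes with 48 tested probe sets (sodium, proton and calcium pumps, monocarboxylate transporter chaperones and enzymes of glutamate, lactate and bicarbonate), were tested in the same fits. In transection against controls 0 of 48 passed (17 higher, 31 lower, median -0.08, all probe sets -0.01), and in transection against saline 0 of 48 (19 higher, 29 lower, median -0.11). In transection against lysolecithin 1 of 48 passed (0.476% of all probe sets), that of the proton pump subunit Atp6v0a1 (M58758_at). It was lower after transection than after lysolecithin by 0.93 on the log2 scale (SE 0.15, limma adjusted p = 0.0416). No other comparison, including those with controls and with saline, had a call among the 48.

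The remaining 49 genes of the rule had no probe set Present on 3 arrays. Of the 77 untested probe sets 65 were never called Present and 12 were Present on 1 or 2 arrays. The 6 just inside the rule, Present on exactly 3 arrays, were those of Slc18a3 (X80395cds_s_at), Slc19a1, Slc20a2, Slc23a3, Slc26a2 and Slc6a20a. The 3 just outside, on exactly 2, were Slc10a1, Slc16a12 and Slc8a1 (U04937_s_at), with highest signals of 142.3, 88.2 and 150.6. The untested genes were Slc7a2 among the amino acid transporters, Slc12a3, Slc12a7 and Slc26a1 among the chloride transporters, and Slc2a4, Slc2a5, Slc37a1, Slc5a2 and Slc5a5 among the sugar and iodide carriers. Further ones were Slc30a1 and Slc30a2 (zinc), Slc16a12 and Slc16a8 (monocarboxylates), Slc28a1, Slc28a2 and Slc35f6 (nucleosides and related), Slc13a1, Slc13a2, Slc13a3 and Slc34a1 (sulphate, dicarboxylates and phosphate) and Slc8a1, Slc8a2, Slc9a3 and Slc9a4 (sodium exchangers). Among transmitter carriers they also included Slc18a1, Slc6a13, Slc6a17, Slc6a18 and Slc6a7. Organic ion, peptide and other carriers made up the rest: Slc10a1, Slc10a2, Slc15a1, Slc22a13, Slc22a18, Slc22a2, Slc22a25, Slc22a5, Slc22a6, Slc22a7, Slc27a2, Slc44a4 and Slc52a3.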

How the data were processed

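Total RNA of the pontine nuclei was hybridised to 16 Affymetrix rat arrays, 1 per condition. Per the submitters' processing notes the arrays were processed with MAS5, whose version is not given in the sources used here. Each probe set of an array has 1 deposited intensity, the MAS5 signal on a linear scale. The deposited detection p-value and Present call were used as given, per the file headers. The authors' series value table holds log2 values for part of the probe sets, whose making is not stated, and it served as an alternative.

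Signals were transformed as log2(signal + 16), and the 4413 probe sets Present on at least 3 arrays, control probe sets excluded, were tested with limma 3.58.1 (R 4.3.3) allowing the prior variance to follow the mean signal. P-values were adjusted by Benjamini-Hochberg over all of these, at 0.05. The model with the 7 controls held all 16 arrays, and its 4 group means left 12 residual degrees of freedom. Interventions and days were compared in the 9 lesion-side arrays with both as terms (4 residual degrees of freedom), and sides within the 6 pairs, each pair being a block (5). The model was tested on simulated data. Tables and plots used Python 3.11.15, numpy 2.4.6, pandas 2.3.3 and matplotlib 3.10.9.

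Gene names came from the platform annotation, where 6283 probe sets had 1 symbol, 280 several and 2236 none, and all 159 members matched RefSeq by gene ID. Role groups followed family numbers. Members, lists and the rule for full values (unadjusted p under 0.01 in any comparison) were chosen with earlier results of these data known. Other genes are given by their range over the arrays, with differences where described. Where the dimmer group was Present on 0 arrays, folds raised each dimmer signal to the lowest Present signal of its array (0.0 to 60.1). In the folds given the dim signals lay above it, so each fold equals the plain difference and is no bound. Slc7a3 is named without a promoter sequence. Alternatives were quantile normalization, other detection filters, log2(signal + 64), no trend, array weights, the series value table, contralateral controls alone, days 10 and 37 alone, no block, and leaving out each array.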

Additional observations from a re-analysis of the deposited data

Results flagged for a closer look

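Among the 7 controls 1 array stood far from the other 6 for 3 of the 82 members (3.66%, beside 9.13% of all tested probe sets), where chance gives about 1 in 20. For Slc25a1 the healthy control read 2125, beside 2623 to 2937 on the contralateral arrays. For Slc25a11 (rc_AA859975_at) the healthy control read 351.9, beside 1465 or more on the others. Slc35a1 read 297.5 on saline contralateral day 37 and 387 or more on the others.

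Both pairs of one intervention and both pairs of another differed between lesion and contralateral side in opposite directions for 24 of the 82 members (29.3%), beside 26.3% of all tested probe sets. They include 9 of the 21 probe sets with an unadjusted p under 0.01 in any comparison, whose values follow with those of Slc4a4, which was chosen after its values were seen. Values are the first intervention's mean lesion minus contralateral log2 difference minus the second's. Transection minus saline gave -0.70 for Slc12a5, -0.27 for Slc11a2 (AF008439_g_at), 0.41 for Slc20a2 and 0.72 for Slc4a4. Lysolecithin minus saline gave -0.61 for Slc11a2, 0.58 for Slc1a1 (L35558_s_at), 0.67 for Slc20a2, 0.56 for Slc5a3 and 0.79 for Slc4a4. Transection minus lysolecithin gave -0.78 for Slc1a1, 0.68 for Slc3a2 (X89225cds_s_at), 0.70 for Slc5a1, -0.88 for Slc5a3, 0.33 for Slc5a6 (AF026554_at) and -0.52 for Slc6a20a. An interaction term in limma across all 4413 probe sets put 0 of them past the threshold, and the smallest unadjusted p among these was 0.00366 for Slc4a4 in lysolecithin against saline (adjusted p = 0.9996).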

How the results depend on the processing

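No member count changed under quantile normalization, other detection filters, log2(signal + 64), no trend, array weights, contralateral controls alone or days 10 and 37 alone. Each of these left 0 members past the threshold. Reversals of sign were looked for only where a difference passed the threshold, so none could be shown under these settings. With no replicate block the counts were also 0 in the comparisons of interventions, days and sides. The series value table gave 1 member in transection against saline, Slc12a5, with p-values adjusted over only the tested probe sets it holds. Leaving out each array in turn gave 0 to 3 members in transection against controls (3 without transection day 37), 0 to 2 in transection against saline (2 without saline day 37, Slc5a1 and Slc7a3, and 1 each without transection day 4 or day 37) and 0 to 1 in lysolecithin against saline (1 without saline day 37, Slc11a2). The other 7 comparisons kept 0. Between 5 and 95 probe sets in all passed in these cases, and the cause was not tested. For each member named with a call after 1 array was left out, that array lay furthest of its group against the difference. Leaving it out raises the difference, so these calls are no separate support. Labels give no replicate numbers, so the days and pairs served as blocks. With 1 array per condition, p-values rest on few residual degrees of freedom.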
